A study of Sus scrofa with 4 samples.

Results

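The differentiation of porcine intramuscular preadipocytes (PIP) into mature adipocytes (pMA) was examined on 2 of the 4 arrays of the series, those of cells that had received neither TNF-α nor serotonin. PIP is a line established from the longissimus thoracis muscle of a female Duroc pig and was used between passages 26 and 35 in medium with 10% serum. The pMA came from the same line: cells that had been confluent for 4 days were fed for a further 4 days with medium holding 10% serum, 50 ng/ml insulin, 0.25 µM dexamethasone, 2 mM octanoate and 200 µM oleate. The labels do not say at what density or time the PIP cells were harvested, so medium, days in culture and cell density cannot be told apart between the groups. Total RNA was pooled within each group and 200 ng of it was labelled with Cy3, so that 1 array stands for each group. Without replicates the spread between cultures is unknown, and no test was made.

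Each array carried 43603 probes under 34853 gene names. A level is the background-subtracted spot intensity, and a log2 ratio is the log2 level in pMA minus that in PIP cells after each array's 75th percentile, 515 in PIP cells and 479 in pMA, had been subtracted. A gene was taken from its brightest probe. A probe that the scanner software did not mark as well above background is called dim. Where the probe was dim on 1 array, the ratio is a lower bound against the higher of its own signal and the faintest signal well above background on that array, 14.7 for PIP cells and 19.2 for pMA. A ratio was obtained for 18636 gene names, 16592 of them measured on both arrays and 2044 as bounds. Of these, 2516 (13.5%) differed at least 2-fold, 1850 (9.93%) being higher and 666 (3.57%) lower in pMA, and the median log2 ratio was 0.12. Among the 5276 names that are gene symbols, 643 (12.2%) differed that far, 387 (7.34%) higher and 256 (4.85%) lower. Counts of list members below are read against these shares. The split depends on the scaling: the higher genes made up 73.5% of the differing genes here, 54.5% after quantile normalization, 34.0% after scaling to the median and 93.8% with bright spike-in controls set equal.

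Adipogenesis is the conversion of fibroblast-like precursors into fat-storing cells. Insulin and a glucocorticoid first bring up the early transcription factors CEBPB and CEBPD, which then activate PPARG and CEBPA. These in turn switch on genes for fatty acid uptake, droplet coats and adipokines. Precursors usually leave the cell cycle before the terminal genes are turned on.

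The label of the pMA was checked first against 21 adipocyte markers found on the array. Of these, 15 had a ratio, 4 were at least 2-fold higher in pMA, none was 2-fold lower, and 6 were dim on both arrays. The 4 higher markers were CD36, CIDEC, FABP4 and PPARG. The dim ones were PLIN1, the droplet coat of mature fat cells, CEBPA, AQP7, RETN, ADRB3 and LGALS12. ADIPOQ, the adiponectin gene, had an intensity of 22.3 in PIP cells and was dim in pMA at 16.8. Leptin (LEP) read 68.1 and 78.6, SLC2A4, the insulin-responsive glucose transporter, 175 and 179.9, and the hormone-sensitive lipase LIPE 1672 and 1689, so these 3 were under 2-fold. In pMA, then, some adipocyte markers were higher than in PIP cells, while ADIPOQ, PLIN1 and CEBPA were not well above background. Of the 4 higher markers, CD36 had 1084 in pMA, CIDEC 272, FABP4 150 and PPARG 51.7, against a 75th percentile of 479.

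The calls on PLIN1 and CEBPA rest on a single oligonucleotide each. Both are shown because a dim probe says only that these 60 bases gave no signal above background. The first is listed at position 1167 of its transcript and the second at position 217, and the files place neither on a chromosome.
PLIN1: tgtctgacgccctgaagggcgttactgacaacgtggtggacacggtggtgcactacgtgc
CEBPA: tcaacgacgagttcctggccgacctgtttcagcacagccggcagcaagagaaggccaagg

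PPARG, the nuclear receptor that drives terminal differentiation, was read by 3 overlapping probes, shown with the 38 bases that they share in capitals. They start at positions 1459, 1464 and 1479 of the transcript.
PPARG at 1459: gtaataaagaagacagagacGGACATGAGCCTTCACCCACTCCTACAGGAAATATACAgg
PPARG at 1464: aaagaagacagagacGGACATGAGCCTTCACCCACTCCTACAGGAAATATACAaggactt
PPARG at 1479: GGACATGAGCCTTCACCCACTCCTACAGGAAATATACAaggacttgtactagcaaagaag
In the same order the probes had 18.7, 26.4 and 19.4 in PIP cells and 49.7, 51.7 and 35.1 in pMA. Their log2 ratios were 1.52, 1.07 and 0.96. All of these levels lay close to the background limits, the ratio of the brightest probe ranged from 0.56 to 1.49 over the 10 settings tried, and since the probes overlap they are readings of 1 stretch rather than separate measurements.

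Markers of other cell types were measured beside those of fat. Some fibroblast markers were bright in both groups: COL1A2 had 208194 in PIP cells and 178802 in pMA, VIM 200923 and 227195. Others were not: PDGFRB had 138 and 132, and CD34 was dim in PIP cells at 9.11 and had 20.9 in pMA. Of 13 such markers with a ratio, 3 were at least 2-fold higher in pMA, namely LUM (1.79), NT5E (1.41) and PDGFRA (1.04), and none was lower. The preadipocyte marker DLK1 was dim on both arrays. Of 14 skeletal muscle markers with a ratio, TNNC1 (31.9 and 95.9, log2 ratio 1.70) was past 2-fold, while MYOD1, MYF5 and MYF6 were dim in both groups and ACTA1, whose sequence is close to that of the smooth muscle actin gene, was bright in both. The myogenic factor MYOG had 279 and 370.2. Further muscle markers were well above background in both groups. TNNT1 had 15923 in PIP cells and 24446.5 in pMA, DES 4115 and 4593, PAX3 1065 and 1098, CKM 1027 and 984, and PAX7 333 and 537. Of the 14 muscle ratios 12 were above 0 and their median was 0.60, against 0.28 for the adipocyte markers. The number past 2-fold was 0 of 13 after normexp background correction, 4 with the mean over each gene's probes, and 7 of 12 with the spike-in controls set equal. The muscle median ranged from 0.25 to 1.13 over the 10 settings tried, and that of the adipocyte markers from -0.07 to 0.71. The part of these markers in other results was not tested. In the brown adipocyte list COX7A1 (1.92) and ZIC1 (1.32) were higher in pMA, 2 of 4 members with a ratio. ZIC1 had only 30.3 in PIP cells and 70.2 in pMA, and its second probe gave 0.63, under 2-fold. The other members were CIDEA (-0.49), DIO2 (0.36), and EBF2 and PPARGC1A, which were dim on both arrays. None of the endothelial, smooth muscle or pericyte, epithelial, or bone and cartilage markers was past 2-fold, and CDH5 and EPCAM were dim. ACTA2 (418006 in PIP cells and 441884 in pMA) and CNN1 (87712.5 and 80104) were bright in both groups. The endothelial markers FLT1 (5130 and 4510) and PECAM1 (690 and 416) were also measured on both arrays. Of 4 leukocyte markers with a ratio TYROBP (1.16) was higher, and CD14 had 697 and 891 (0.46). In bulk RNA, fewer cells of a type and less RNA per cell cannot be told apart.

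**Figure D1:**
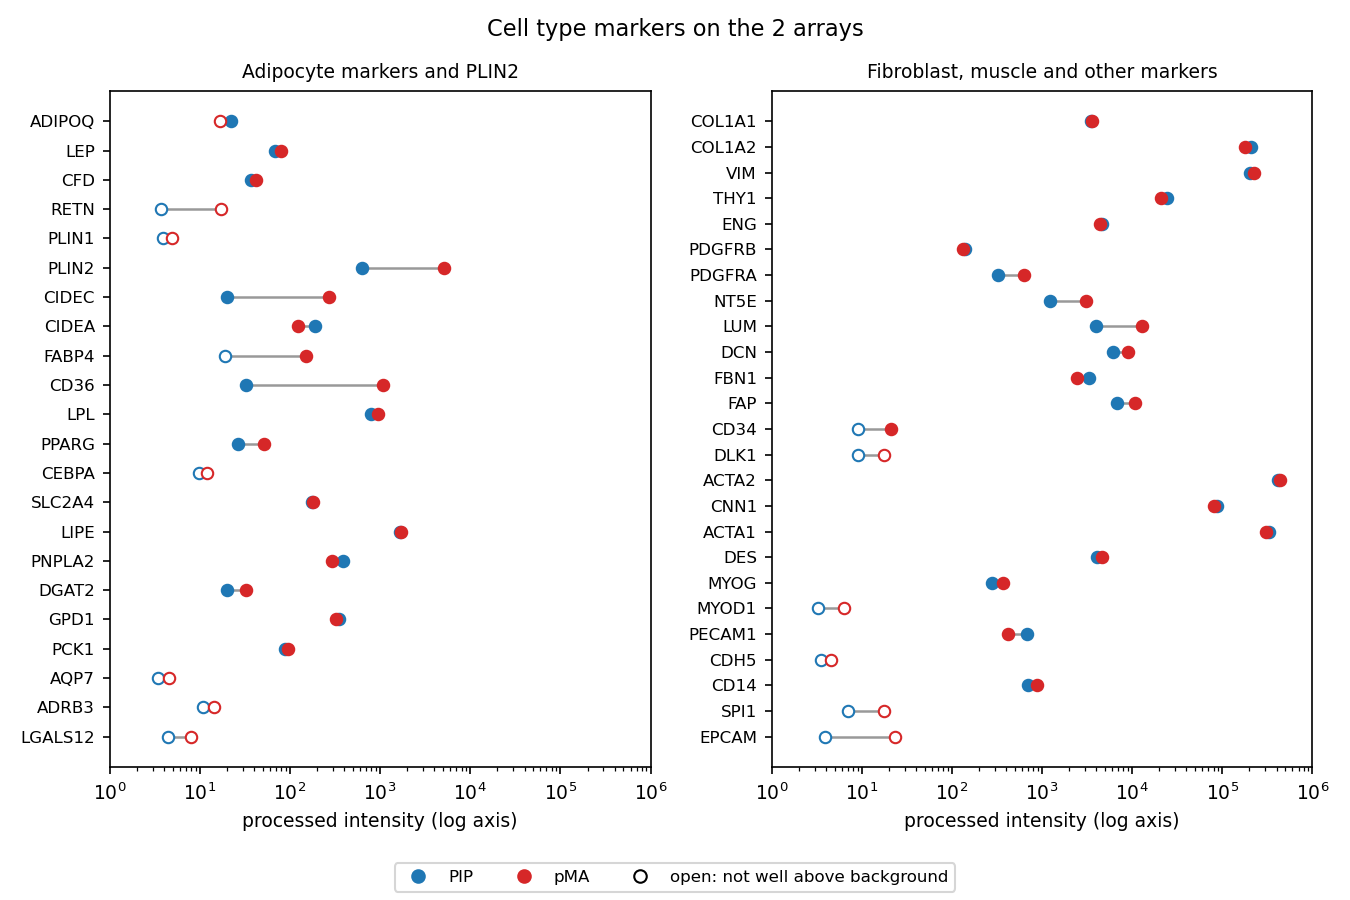
Processed intensity on a log axis for cell type markers in PIP cells (blue) and pMA (red), 1 array each, with open circles where the probe was not well above background. CD36, CIDEC, FABP4 and PLIN2 show the widest gaps in the left panel, while PLIN1, CEBPA, AQP7, ADRB3, RETN and LGALS12 are open on both arrays.

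Among the regulators of adipogenesis, 44 of 52 genes on the array had a ratio, 5 were at least 2-fold higher in pMA and none was lower. They were KLF11, KLF9, CEBPB, KLF15 and PPARG. KLF11, a zinc finger factor, had 58.7 in PIP cells and 255 in pMA (log2 ratio 2.22). KLF9, of the same family, had 3016 and 10291 (1.88), with 9 probes between 1.37 and 2.30. CEBPB had 60.5 and 184 (1.71), and KLF15, a further KLF family member, 542 and 1015 (1.01). CEBPD had 9888 and 17414, a ratio of 0.92 that stayed below 2-fold, with 5 probes from -0.34 to 1.22. Among the terminal regulators SREBF1, the sterol and lipogenic factor, had 9493 and 8827 (0.00). The 22 restraining factors with a ratio lay between -0.76 and 0.50, with a median of -0.19, and none reached 2-fold. CEBPE, a further member of the CEBP family known from myeloid cells, had 72.6 and 556 (3.04) and was among the 15 highest symbols.

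Uptake and binding of fatty acids held both the highest symbol and some of the lower ones. Of 21 genes with a ratio, 4 were at least 2-fold higher and 2 lower in pMA, and the median, 0.12, equalled that of all genes. CD36, the fatty acid translocase, had 32.4 in PIP cells and 1084 in pMA (log2 ratio 5.17). ANGPTL4, a secreted inhibitor of lipoprotein lipase, had 218 and 3105 (3.94), with 3 probes between 3.94 and 4.33. FABP4, the adipocyte fatty acid binding protein, was dim in PIP cells at 19.1 and had 150.2 in pMA, which makes it at least 8.48-fold higher. SLC27A1, a fatty acid transport protein, had 102 and 261 (1.47, both probes above 1.3). In the opposite direction FABP3, the binding protein of heart and muscle, had 12452 in PIP cells and 3890.2 in pMA (-1.57, 4 probes from -1.86 to -1.38), and the caveolar coat gene CAV1 had 39705 and 17003 (-1.12). FABP5 (27009.6 and 28058) and lipoprotein lipase LPL (796 and 958) differed by less than 2-fold. The 3 fatty acid binding proteins thus differed in direction and size.

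The 4 probes of CD36 gave unequal sizes in 1 direction. The probe at position 399 of the transcript covers the start of the coding sequence, marked by the ATG in capitals.
CD36 at 399: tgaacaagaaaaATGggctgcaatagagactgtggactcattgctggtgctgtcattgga
It was dim in PIP cells at 8.75 and had 70.8 in pMA, a lower bound of 2.37 on the log2 scale. The probe at position 834 had 36.6 and 77.7 (1.19), that at 1969 had 12.9 and 425 (at least 4.96) and that at 2173, the brightest, had 32.4 and 1084 (5.17). The pair of probes nearer the end of the transcript was thus brighter in pMA and showed the larger ratios.

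Few lipid droplet genes were past 2-fold. Of 10 droplet coat and formation genes with a ratio, 2 were at least 2-fold higher in pMA and none lower. PLIN2, the droplet coat found in most cells, had 629.8 in PIP cells and 5138 in pMA (3.14). CIDEC, a droplet fusion protein of fat cells, had 19.95 and 272 (3.88), while its second probe gave at least 0.75. CIDEA, a related fusion protein, had 189 and 124 (-0.49). Of 9 lipolysis genes with a ratio none was past 2-fold, among them the triglyceride lipase PNPLA2 (383 and 293, -0.28) and LIPE (0.12), and the lysosomal lipase LIPA came nearest at 0.88.

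The enzymes that make fat differed little. In triglyceride synthesis 18 genes had a ratio, none was at least 2-fold higher and PCK2, the mitochondrial form of phosphoenolpyruvate carboxykinase, was lower (18469.7 and 6746, -1.35). DGAT2, which adds the last fatty acid, had 20.1 and 32.2 (0.79), DGAT1 491 and 608 (0.41), and GPAM, which adds the first, 414 and 245 (-0.65). In de novo lipogenesis none of 14 genes was past 2-fold in either direction and the median was 0.01. The fatty acid synthase FASN had 22268 in PIP cells and 13247 in pMA (-0.64, 3 probes from -0.81 to -0.05), the desaturase SCD 31596 and 22364 (-0.39, 9 probes from -0.95 to -0.09) and the citrate lyase ACLY 23841 and 27432 (0.31). These lipogenic transcripts stood well above background before differentiation as well as after it. None of 20 cholesterol genes and none of 23 insulin signalling and glucose uptake genes was past 2-fold, including the insulin receptor INSR (0.21).

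In fatty acid oxidation single genes stood out. Of 50 with a ratio 6 were at least 2-fold higher, none was lower, and the median was 0.18, which turned to -0.17 after scaling to the median. PDK4, a kinase that shuts off pyruvate oxidation, was dim in PIP cells at 3.81 and had 384 in pMA, at least 28.1-fold higher. It was the largest bound of any symbol that was higher in pMA, and 8 of its probes gave bounds between 1.02 and 4.81. TXNIP, an arrestin-like protein that limits glucose uptake, had 4289 and 31350.0 (2.98, 9 probes from 2.72 to 3.16). CPT1A, which controls the entry of fatty acids into mitochondria, had 7709 and 20844 (1.54, 6 probes from 1.44 to 2.23). The peroxisomal oxidase ACOX3 had 63.8 and 142 (1.26), and catalase (CAT) 2843 and 5403 (1.03, 9 probes from 0.47 to 1.25). None of the 21 TCA cycle genes reached 2-fold, and of 34 respiratory chain genes COX7A1 alone did. In glycolysis ALDOC was at least 7.86-fold lower in pMA (163 and 4.98), ENO2 at least 2.36-fold higher (17.3 and 37.9), and the other 16 of 18 genes were under 2-fold.

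Secreted factors of fat were more often higher than genes at large. Among 27 adipokine and receptor genes with a ratio 9 were at least 2-fold higher, 1 was lower, and the median was 0.45. The median kept its sign under all 10 settings tried (0.11 to 0.93), and the number of higher members ranged from 5 to 12. Among the 22 well above background on both arrays it was 5. C1QTNF3 (14.5 and 32.0) and ASIP (8.95 and 35.3), like SFRP5 and LCN2, were dim in PIP cells and counted by their bounds. AGT, the angiotensin precursor, had 111 in PIP cells and 1765 in pMA (4.10, 5 probes from 2.44 to 4.10). SFRP5, a secreted WNT antagonist, was dim in PIP cells at 6.52 and had 157 in pMA, at least 11.5-fold higher. SERPINF1, or pigment epithelium-derived factor, had 1133 and 4344 (2.05), adrenomedullin (ADM) 3634 and 11043 (1.71), and LCN2 was at least 4.37-fold higher. NAMPT, the rate-limiting enzyme of NAD salvage, was the member that was lower (1596 and 591, -1.33, both probes under -1.1). RBP4 (0.29), RARRES2 (0.59) and CFD (0.28), the adipsin gene, were under 2-fold.

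**Figure D2:**
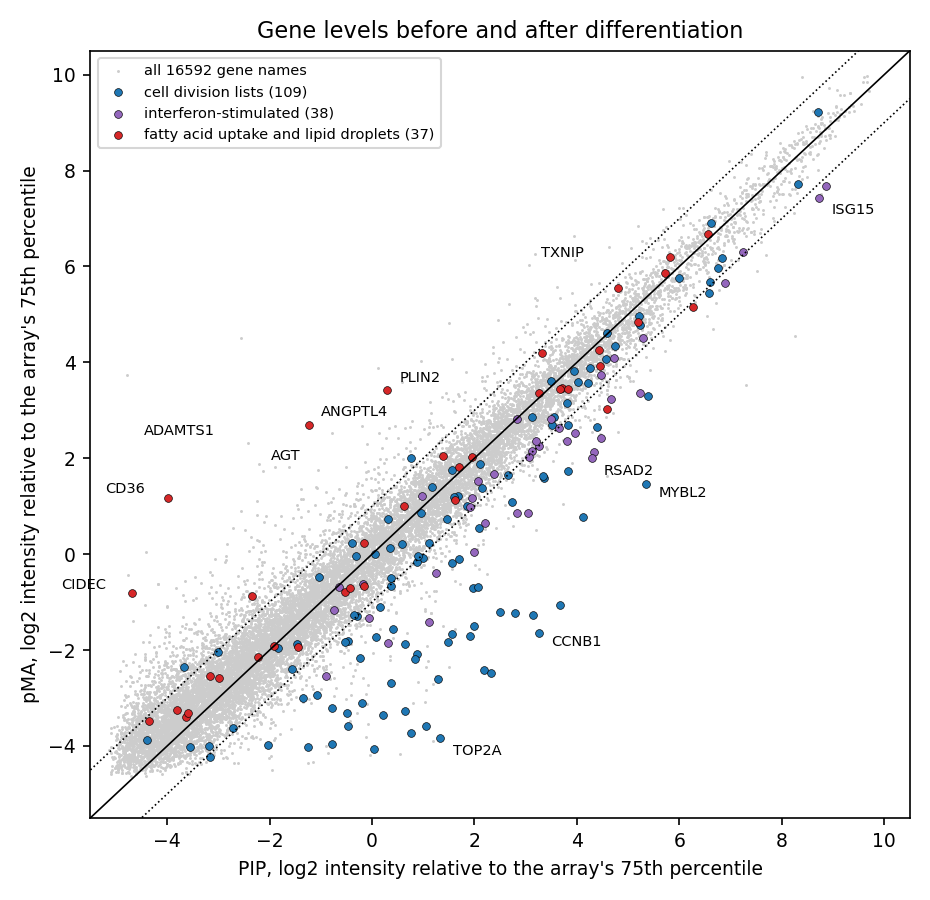
Log2 intensity relative to the array's 75th percentile for the 16592 gene names well above background on both arrays, PIP cells on the x axis and pMA on the y axis, with equality as a solid line and 2-fold as dotted lines. Cell division genes (blue) and interferon-stimulated genes (purple) lie mostly below equality, and CD36, CIDEC, PLIN2, ADAMTS1 and AGT lie far above it.

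Genes known to respond to glucocorticoids were higher in pMA more often than those of any other list but the 4 brown adipocyte markers. Of 27 with a ratio, 13 were at least 2-fold higher in pMA, none was lower, and the median was 0.96 against 0.12 for all genes. Over the 10 settings the median ranged from 0.61 to 1.38 and the number of higher members from 10 to 17. FKBP5, a co-chaperone of the glucocorticoid receptor, had 197 in PIP cells and 1059 in pMA (2.53, 3 probes from 2.27 to 2.53). The clock gene PER1 had 4814 and 18852 (2.08), TSC22D3, which encodes a leucine zipper protein named after its induction by glucocorticoids, 1320.5 and 4658 (1.93), and HSD11B1, which regenerates active glucocorticoid inside cells, 36.0 and 109.9 (1.72, with 4 probes from 0.28 to 1.72). ADAMTS1, a matrix protease, had 96.7 and 2377 (4.73), and its second probe gave 5.55. The metallothionein MT1A (-0.50) and annexin ANXA1 (-0.25) were in the list too and did not reach 2-fold. Dexamethasone, a glucocorticoid, is listed for the differentiation medium and not for the growth medium. The same holds for insulin, octanoate and oleate, so their parts cannot be told apart, and the part of dexamethasone was not tested. The list shares ANGPTL4, PDK4, KLF9 and KLF15 with lists described above. Lists and members were chosen with earlier results of these data known, so the ranking between lists is a description only.

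Cell division genes made up the lower end of the comparison. Of 131 genes in the 4 lists together with a ratio, 73 were at least 2-fold lower in pMA and 2 higher, and the median was -1.24. Mitosis was lowest, with 29 of 41 genes at least 2-fold lower, none higher and a median of -2.08, which lay between -2.43 and -1.64 over the 10 settings. Among 22 replication genes 11 were lower, among 40 cyclins, kinases and cell cycle regulators 18, and among 28 genes of replication-linked repair 15.

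TOP2A, which untangles DNA before chromosomes separate and is listed on the array as TOPOII, had 1296 in PIP cells and 33.6 in pMA (log2 ratio -5.16). CCNB1, the cyclin that starts mitosis, had 4925 and 152 (-4.91), and its partner kinase CDK1 had 3563 and 204 (-4.02 on each of its 2 probes). CDC20, which lets the anaphase complex act, was dim in pMA (622 and 19.3, at least 29.9-fold lower). The same held for the mitotic kinase PLK1, at least 17.9-fold lower (371 and 12.7), and for CCNB2, at least 12.4-fold lower (300.4 and 22.4). BIRC5, a subunit of the chromosomal passenger complex, had 4557 and 199.9 (-4.40), the spindle protein TPX2 2902 and 208 (-3.70), and the kinesin KIF4A 1068 and 40.1 (-4.63). The 15 lowest symbols measured on both arrays were TOP2A, CCNB1, CDK1, BIRC5, TPX2 and KIF4A together with PBK, CDCA3, SPAG5, DLGAP5, CENPF, MELK, MYBL2, CIT and KIFC1, and all are known from dividing cells.

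Replication genes differed by unequal amounts. CDC6, which loads the helicase at origins (369 and 48.1, -2.83), and the helicase components CDC45 (2052 and 169, -3.49, 3 probes up to -0.70), MCM3 (374 and 39.7, -3.13) and MCM4 (7354 and 1598, -2.10) were lower, as was the clamp-associated factor PCLAF (6517 and 229, -4.72). PCNA, the polymerase clamp, had 1861 and 954 (-0.86, 3 probes from -1.36 to -0.84), and the subunits RFC4 (-0.12), POLD3 (-0.11) and POLD2 (0.20) lay near 0. In repair, RAD51AP1 (-3.06), MND1 (-3.02) and BRCA1 (-1.98) were lower. MKI67, the antigen used to score proliferation, stood at 13766 and 9633 (-0.41, 2 probes within 0.02 of each other), unlike most mitosis genes of the list. CCND3, a cyclin of the early cell cycle, was higher (868 and 1917, 1.25), as was the kinase inhibitor CDKN2B (40.4 and 93.7, 1.32), and the inhibitor CDKN1A was bright in both groups (216768 and 285459, 0.50). MYC had 3444 and 1021 (-1.65, 3 probes from -1.73 to -1.51).

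**Figure D3:**
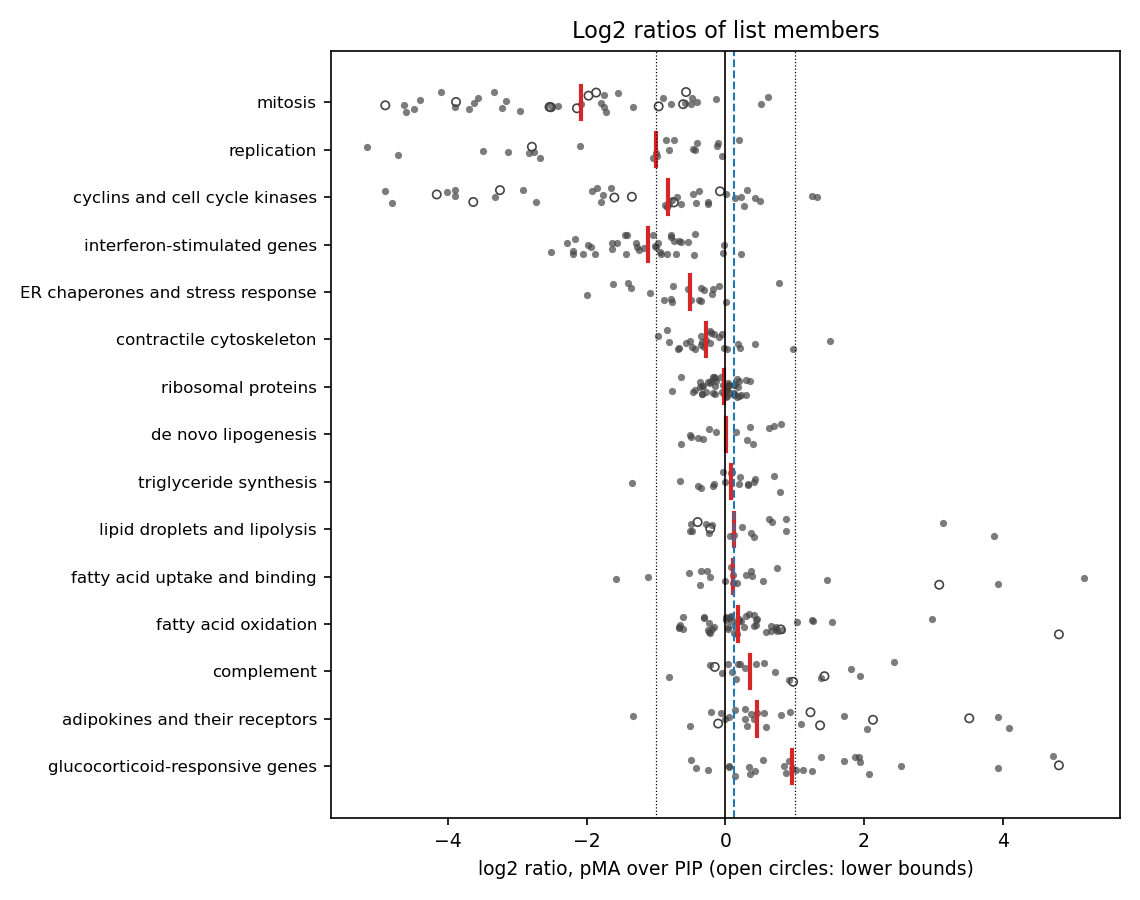
Log2 ratio of pMA over PIP cells for each member of 15 gene lists, with lower bounds as open circles, the list median in red, the median of all genes (0.12) as a dashed line and 2-fold as dotted lines. Mitosis genes reach from -4.90 to 0.62 and interferon-stimulated genes from -2.51 to 0.23, whereas most ribosomal protein genes lie close to 0.

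Interferon-stimulated genes were lower in pMA nearly throughout. These genes answer type I interferon, and many encode antiviral proteins. Of 38 with a ratio, all measured on both arrays, 22 were at least 2-fold lower, none was 2-fold higher, and 37 had a ratio below 0. The median of -1.11 ranged from -1.46 to -0.69 over the 10 settings, and the number at least 2-fold lower from 14 to 31. The antiviral enzymes RSAD2 (10051 and 1909, -2.29) and OAS1 (11435 and 2567, -2.05, 3 probes from -2.19 to -1.53) were among the lowest, together with PARP14 (1111 and 181, -2.51), CMPK2 (10375 and 2102, -2.20), HERC5 (4273 and 866, -2.20) and MX2 (643 and 132, -2.17). MX2 had 3 probes from -2.32 to -0.51 and stood at -0.58 after quantile normalization, under 2-fold. Some stayed among the bright genes of both arrays: ISG15, a ubiquitin-like modifier, had 217868 in PIP cells and 82885 in pMA (-1.29), and MX1 had 239275 and 98694 (-1.17, 5 probes from -1.73 to -1.06). Among components of the signalling pathway IRF9 had 6454 and 2986 (-1.01), and STAT2 had 3655 and 3358 (-0.02).

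Cytokine and chemokine genes were divided. Of 33 with a ratio, 4 were at least 2-fold higher and 4 lower in pMA. Those lower were chemokines, CCL4 (96.6 and 36.2, -1.31), CXCL10 (812 and 341, -1.15), CCL19 (996 and 433, -1.10, with its second probe at 0.65) and CCL5 (7177 and 3138, -1.09). Higher were the monocyte chemokine CCL2 (32899.9 and 70906, 1.21), CSF1 (56.1 and 116, 1.16), CCL21, at least 2.20-fold (9.12 and 30.1), and a serum amyloid A gene, an acute phase protein also made by fat cells. The array lists it as LOC733603, serum amyloid A2, and RefSeq as SAA3. As its family members are alike in sequence, the probes may not tell them apart. One oligonucleotide for it is present under a pair of probe names, which makes it a technical repeat.
Serum amyloid A at 219: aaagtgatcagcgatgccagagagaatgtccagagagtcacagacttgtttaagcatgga
Under the first name it had 556 in PIP cells and 7033 in pMA (3.77), and under the second 520 and 6500 (3.75). All 5 probes of the gene lay between 3.45 and 3.78.

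Of 20 chaperone and stress response genes of the endoplasmic reticulum with a ratio, 5 were at least 2-fold lower in pMA, none was higher, and the other 15 were under 2-fold, although 18 lay below 0. The median was -0.52 and ranged from -0.87 to -0.10 over the settings. The number at least 2-fold lower ranged from 9 after scaling to the median to 2 with the spike-in controls set equal, where 1 was higher. HSPA5, the main chaperone of the compartment, had 7736 and 1796 and was the lowest of the list, and HSP90B1 94350.4 and 28628 (-1.61, 8 probes from -2.16 to -1.15). PDIA4 (-1.40), CRELD2 (-1.36) and SDF2L1 (-1.09) followed. The transcription factors of the stress response stood nearer to 0, with XBP1 at -0.38 and DDIT3 at -0.31. Among matrix genes the lowest was SERPINH1, the collagen chaperone (11722 and 2509.8, -2.12, with its second probe at -0.40), and PPIB, a prolyl isomerase of the same compartment that serves as a housekeeping gene, had 16669 and 6137 (-1.33).

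Of 24 genes of collagen and its processing with a ratio 1 was at least 2-fold higher and 2 lower, and COL1A1 (3535 and 3547, 0.11) and COL1A2 (-0.11) were close to 0. COL11A1 was higher (34834 and 71582, 1.15) and COL5A3 lower (1126 and 515, -1.02). The small proteoglycans LUM (3980.2 and 12758, 1.79, 9 probes from 1.55 to 2.07) and FMOD (5483 and 14253, 1.49), which bind collagen fibrils, were higher, as was NOV (622 and 1898, 1.72). SPP1 (-1.16) and TNXB (-1.11) were lower. Of 36 matrix proteases and inhibitors 5 were higher and 1 lower. After ADAMTS1 came the procollagen protease ADAMTS2 (70.6 and 274, 2.06), and the protease inhibitor SERPINE2 was lower (53974 and 18178, -1.46, 3 probes from -1.76 to -1.46). Contractile cytoskeleton genes held 1 member past 2-fold, MYLK (24.4 and 64.3, 1.51), although 21 of 27 lay below 0. Their median of -0.28 became 0.14 when the spike-in controls were set equal.

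In growth factor systems single members differed. In the IGF system IGF1 (246 and 496, 1.12, 2 probes up to 1.60) and the IGF binding protein protease PAPPA (26371 and 51965, 1.09) were higher, and IGFBP6 (29044 and 10613, -1.35) and IGFBP3 (1436 and 642, -1.05) were lower, out of 14 genes with a ratio. In the TGF-β and BMP list the ligands TGFB3 (48267 and 15029.6, -1.58, 3 probes from -2.13 to -1.50) and myostatin (MSTN, 154 and 49.7, -1.52), which restrains muscle growth, were lower. Follistatin (FST), which binds myostatin and activins, was higher (248 and 1619, 2.81, with 2.65 on its second probe), as was the co-receptor TGFBR3 (401 and 995, 1.42). The other 39 of 43 genes in that list were under 2-fold. In WNT signalling the ligand WNT2B was lower (6220 and 2100, -1.46), WISP1 was higher (1.14), as was SFRP5, and WNT10B, a ligand known to hold back adipogenesis, was close to 0 (-0.04). In the complement list 5 of 20 genes with a ratio were higher and none lower, led by the extracellular chaperone clusterin (CLU, 2840.3 and 14173, 2.43). The number higher ranged from 3 to 9 over the 10 settings, with at most 1 lower. C9 was dim in PIP cells (14.1 and 36.8), and CD55 was faint there (18.9 and 61.7). C1R and SERPING1 are in the glucocorticoid list too. C3, the central complement component, had 30.3 and 31.8 (0.18).

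**Figure D4:**
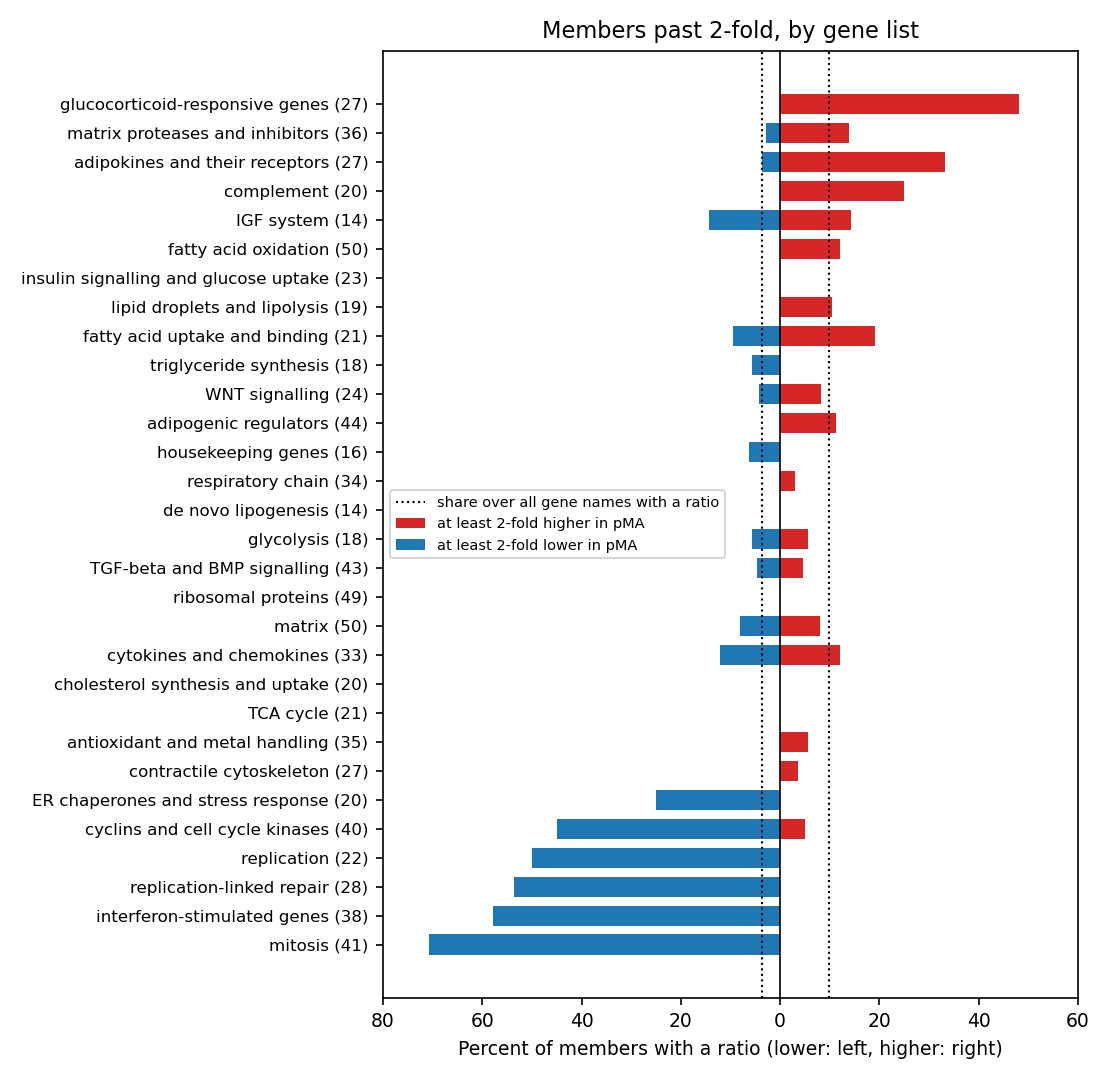
Percent of list members with a ratio that were at least 2-fold higher (red, right) or lower (blue, left) in pMA, by gene list with the number of members in brackets, sorted by list median; dotted lines mark the shares over all gene names, 9.93% and 3.57%. Glucocorticoid-responsive genes have the longest bar to the right among the lists shown and mitosis genes the longest to the left.

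Several of the highest symbols belonged to no list. The membrane glycoprotein GPM6B had 87.1 in PIP cells and 889 in pMA (3.46, 7 probes from 1.67 to 3.73). CYP11A1, the enzyme that starts steroid synthesis from cholesterol, had 108 and 1034 (3.36, 4 probes from 1.36 to 3.55). NFKB2 (108 and 847, 3.08), the signalling inhibitor SPRY2 (996 and 7762, 3.07), PRDM1 (32.3 and 226, 2.91) and SLC5A10 (99.5 and 611, 2.73) completed the 15 highest. PRDM1 had 4 probes from -0.31 to 2.91 and SLC5A10 a second probe at 0.30, so that these ratios rest on 1 probe. Lower bounds put CTNNA2 at least 15.2-fold, S100A12 at least 6.15-fold, ANGPT4 at least 4.85-fold and EGR3 at least 3.97-fold higher in pMA. The largest ratios of all came from probes without a gene name: TC576066 had 18.8 and 6362 (8.51) and A_72_P231427 had 87.9 and 10964 (7.07). Both exceed CD36 and have 1 probe each.

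Probes of 1 gene give a check on hybridization but not on the biology, since they share the RNA. Among 137 higher genes with at least 2 probes that gave a ratio, every probe was above 0 in 130 (94.9%) and past 2-fold in 73 (53.3%). For 149 lower genes the numbers were 125 (83.9%) and 78 (52.3%). In KIFC1 probes at -3.62 and -3.79 stood beside one at 0.42. CES1, THBS1 and TTF2 each held probes past 2-fold in both directions. For THBS1, a matrix glycoprotein, 6 probes ranged from -3.43 to 1.03 around a brightest one at -0.02. E2F1, a driver of replication genes, had 0.22 on its brightest probe and -3.13 on its other one, a pair noticed after the values were seen. Spots of 25 repeated probes for PIP cells and 24 for pMA had a pooled standard deviation of 0.25 for a log2 ratio. The log2 ratios of 131 oligonucleotides spotted under 2 or more names had one of 0.10. Both describe spots of the same 2 arrays and not the spread between cultures.

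**Figure D5:**
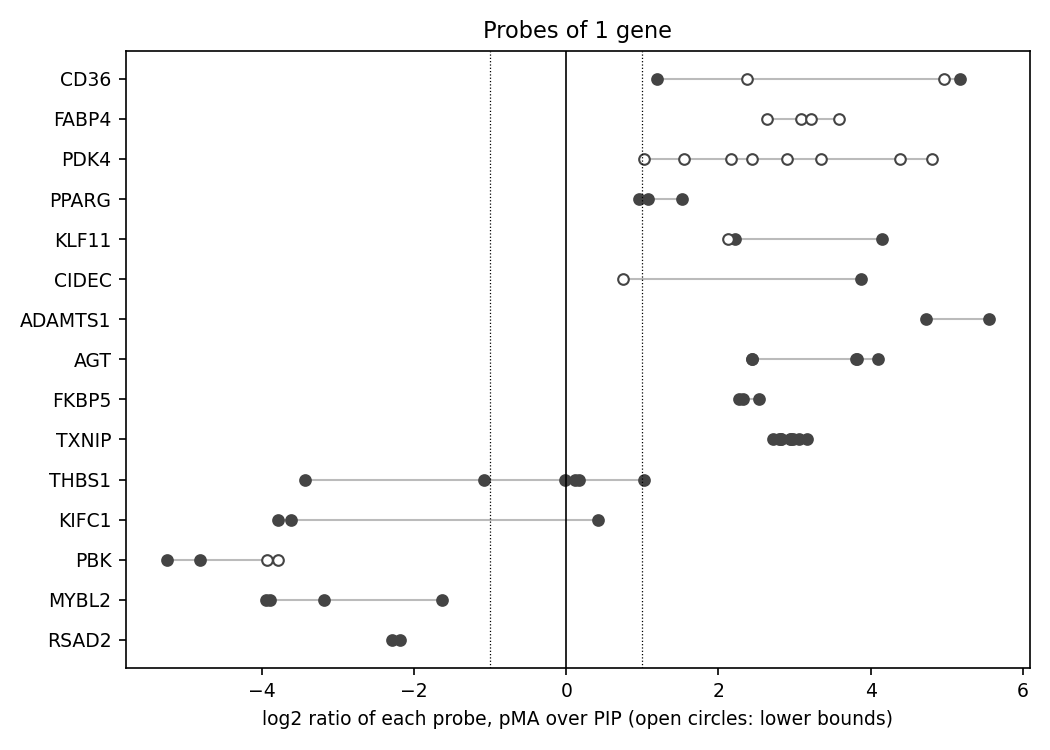
Log2 ratio of pMA over PIP cells for each probe of 15 genes, with lower bounds as open circles and 2-fold as dotted lines. The 9 probes of TXNIP lie between 2.72 and 3.16, whereas those of CD36, KIFC1 and THBS1 are spread widely.

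The level of a gene was linked to the direction of its ratio. Among genes measured on both arrays, the dimmest of 4 equal bands had 12.6% of members at least 2-fold higher and 1.52% lower with a median log2 ratio of 0.35. In the brightest band the shares were 2.63% and 3.16% with a median of -0.02. Of the 1850 higher genes, 18.4% exceeded the 75th percentile on their brighter array, against 48.0% of the 666 lower ones. Negative control spots had a median raw signal of 40.8 for PIP cells and 47.8 for pMA, and the part of this offset in the ratios of dim genes was not tested.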

How the data were processed

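Levels were measured on porcine 44K oligonucleotide arrays. The deposited values are background-subtracted intensities from Agilent Feature Extraction 10.7.3.1 (1 color, Cy3; both arrays on 1 slide); the study's methods describe other arrays as well, one for mouse and one with a pair of dyes. The value table deposited by the authors holds each intensity as a ratio to the array's 75th percentile. Per the labels each group is 1 pooled sample, so no test was run.

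Control spots and outlier spots (12 for PIP cells, 1 for pMA) were left out, spots of a probe averaged on the log2 scale, each array's 75th percentile subtracted, and the probe with the highest mean taken per gene name (Python 3.11.15, pandas 2.3.3). No spot was saturated. Of the probes, 56.5% for PIP cells and 56.6% for pMA were well above background. The 2-fold cutoff is that of the methods. With 1 array per group, the number of arrays limits the precision.

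Gene lists were written from general knowledge. The comparison, the lists and their members were chosen with earlier results of these data known. Of 1574 list entries in 39 lists, 964 were matched by symbol, 12 by an older symbol and 70 through RefSeq accessions; 528 were not matched to a probe here. Genes named are the 15 highest and 15 lowest symbols on both arrays, the 8 largest bounds each way, up to 6 members past 2-fold per list and direction with members that define a list, and genes with 3 or more probes past 2-fold in opposite directions. TSC22D3, HSD11B1, MCM4, MYC, ISG15, MX1, IRF9, E2F1 and a pair of unnamed probes were added after their values were seen. So were RPL14 and RPS20, the ends of the ribosomal range. Apart from the cell type markers, members under 2-fold were named without a list fixed in advance. Scaling, background correction (normexp, limma 3.58.1, offset 50), filter, probe rule, table and cutoff were varied. The calculation was tested on simulated data. The 2 arrays of stimulated pMA were not used here.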

Additional observations from a re-analysis of the deposited data

How the results depend on the processing

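No paired analysis was possible because each group has 1 array. Higher and lower genes numbered 1129 and 941 with quantiles made equal, 853 and 1656 with medians made equal, 2294 and 539 with the 75th percentile taken over probes well above background on both arrays, 4377 and 290 with bright spike-in controls set equal, 466 and 359 after normexp correction, 1204 and 553 with a filter on both arrays, 5806 and 1316 without a filter, 1935 and 624 from the value table, 4356 and 1985 at 1.5-fold, 211 and 131 at 4-fold, and 387 and 256 among symbols. The median log2 ratio of all genes, 0.12, moved to -0.22 after scaling to the median and to 0.56 with the spike-in controls set equal, without filter it was 0.42, and list values move with it. The mitosis median of -2.08 was -2.34 after quantile normalization, -2.43 after scaling to the median, -1.66 with the spike-in controls and -1.64 after normexp. The median of fatty acid uptake and binding genes, 0.12, was -0.23 after scaling to the median and 0.54 with the spike-in controls, so its sign depends on the scaling. The cause of these shifts was not tested beyond the setting itself. Of 138 named genes past 2-fold, none changed direction in 1222 values under 9 other settings, and 100 values fell under 2-fold, 35 of them after normexp. These genes were past 2-fold on the same arrays to begin with. Scaling to the median and to the spike-in controls moved the median of all genes by only -0.35 and 0.44. A change of direction could not occur under those scalings, so its absence is no support for the ratios. Ratios of genes dim on 1 array are bounds, and 1 pooled array per group gives no error between cultures.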

Other observations

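Groups that a cell needs at all times served as a further description. None of 49 ribosomal protein genes was past 2-fold, with ratios from -0.76 for RPL14 to 0.36 for RPS20 and a median of -0.02. Among 16 housekeeping genes PPIB was past 2-fold, while GAPDH (277945 in PIP cells and 287923 in pMA, 0.16), HPRT1 (3206 and 3067, 0.04) and ACTB (290863 and 363896, 0.43) were not. With spike-in controls set equal, the ribosomal median became 0.40 and still no ribosomal protein gene reached 2-fold.

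Of 35 antioxidant and metal handling genes GPX3 (4036 and 8904, 1.25, 4 probes from 1.02 to 1.25) and CAT were at least 2-fold higher and none was lower. NQO1, a quinone reductase controlled by the transcription factor NFE2L2, had 774 and 361 (-0.99), and NFE2L2 itself 1240 and 616 (-0.90), both just under the cutoff.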
